A study of Mus musculus with 8 samples.

Results

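The endothelial identity genes are 10 genes whose products define the inner lining of blood vessels: Pecam1, Cdh5, Cldn5, Esam, Tek, Tie1, Kdr, Flt1, Emcn and Egfl7. They were taken by gene symbol from the 12148 genes of the table, and all 10 were present. The list was chosen by its members' known cell type, but after the genotype difference in these libraries had been seen: Cldn5 and Tek had been picked from these values because they were lower in the mutants, and the other 8 were set beside them to ask whether they fell too. The genotype differences of the 10 genes are therefore given as a description, with no p-value, and counts of members past a threshold are given beside the share of all genes, with nothing read from them.

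RNA was sequenced from the dental pulp of the first molars (M1) of C57BL/6J mice at postnatal day 7 (P7). The 4 Osterix-Cre libraries, numbered 49 to 52 as in the labels, came from control mice that carry the Cre recombinase under the Osterix promoter. The 4 Tgfbr2cko libraries, numbered 53 to 56, came from mice with the same Cre in which Tgfbr2, a receptor of TGFβ, was conditionally deleted. Both genotypes thus carry the Cre. Osterix drives it in the mesenchyme that forms odontoblasts and bone, so the design aims the deletion at that mesenchyme and not at endothelium. Whether endothelial cells kept Tgfbr2 was not tested here. Left and right M1 were pooled, and the labels do not say which libraries came from separate animals, so p-values measure the spread between these samples, which may be partly technical. The number in a library's title repeats within a genotype (49 and 50 share one, as do 54 and 55, and 53 and 56), and no source used here explains it. If it marked an animal or litter, n would be 3 controls and 2 mutants in place of 4 each. Averaged that way, the log2 fold changes of Cldn5 and Tek were -1.22 and -0.60, and that of Cdh5 was -0.14 in place of -0.27. The libraries held between 8682872 and 13539670 counted reads, and every member was counted in every library, with 95 reads at the least (Cldn5) and 919 at the most (Egfl7). Tgfbr2 itself, the targeted gene, stood at 7.16, 7.62, 7.64 and 7.52 log2 CPM (counts per 1000000 counted reads, on a log2 scale) in Osterix-Cre 49 to 52 and at 7.02, 7.00, 7.16 and 7.61 in Tgfbr2cko 53 to 56. It was below every control only in 53 and 54, level with the lowest control in 55, and inside the control range in the library labelled Tgfbr2cko 56. Which part of the gene is removed is not given in the sources used here, so its total reads are a weak check of the labels. The library labelled Tgfbr2cko 56 also spent 18.5% of its reads on Amelx and Ambn, the enamel matrix genes of the neighbouring enamel organ, against 0.326% to 2.74% in the other 7, so results are also given without it.

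Endothelial cells form the wall of every capillary and the lining of larger vessels. They hold to each other by adherens and tight junctions, which set how much passes between the blood and the tissue. They sense vascular endothelial growth factor (VEGF) and the angiopoietins through receptor tyrosine kinases that few other cells make. In the growing tooth, capillaries enter the pulp through the root end and run up to the odontoblast layer, whose cells lay down dentin. In bulk tissue such as this pulp, fewer endothelial cells and less RNA of a gene per endothelial cell cannot be told apart. The paper stained PECAM, the product of Pecam1, in M1 sections at P7 and a later age and reported no significant difference in vascularization. That measure is stained protein with few samples per genotype, unlike the RNA measured here.

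Promoter sequences are printed for the 3 members whose genotypes did not overlap, Cldn5, Tek and Emcn, because these are the genes on which the description turns. Each runs from 250 bases before to 50 bases after the RefSeq start on GRCm38.p6, 5′ to 3′ on the plus strand, which is the coding strand of all 3. Capitals mark a match to the core of the ETS family, transcription factors that many endothelial genes use, spelled CAGGAA or CCGGAA, or TTCCTG or TTCCGG on the other strand. The windows are chr16:18776597-18776896 for Cldn5, chr4:94739039-94739338 for Tek and chr3:137340828-137341127 for Emcn.
Cldn5: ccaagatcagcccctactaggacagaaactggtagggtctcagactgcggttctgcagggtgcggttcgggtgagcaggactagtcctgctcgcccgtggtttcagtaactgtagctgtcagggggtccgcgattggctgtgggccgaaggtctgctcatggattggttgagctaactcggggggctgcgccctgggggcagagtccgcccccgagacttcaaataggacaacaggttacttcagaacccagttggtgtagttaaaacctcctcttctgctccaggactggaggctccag
Tek: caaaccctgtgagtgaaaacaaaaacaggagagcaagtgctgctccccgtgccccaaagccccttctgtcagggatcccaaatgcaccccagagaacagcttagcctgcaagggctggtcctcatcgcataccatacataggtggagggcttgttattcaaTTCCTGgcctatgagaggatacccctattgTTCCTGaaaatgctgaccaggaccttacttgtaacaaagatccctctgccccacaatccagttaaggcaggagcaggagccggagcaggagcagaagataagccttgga
Emcn: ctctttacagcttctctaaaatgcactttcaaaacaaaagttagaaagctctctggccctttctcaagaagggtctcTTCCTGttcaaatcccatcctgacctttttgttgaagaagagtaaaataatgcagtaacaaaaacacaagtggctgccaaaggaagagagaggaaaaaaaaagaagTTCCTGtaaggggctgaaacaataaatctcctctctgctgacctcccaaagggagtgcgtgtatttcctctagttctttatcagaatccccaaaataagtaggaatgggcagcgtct
The Tek window held 2 ETS matches, starting 89 and 59 bases before the start of transcription, and the Emcn window also held 2, at 173 and 67 bases before. The Cldn5 window held 0. RefSeq windows were at hand for 7 of the 10 members, in 9 windows since Egfl7 has 3. Among the other members, Tie1 and Egfl7 also held CAGGAA, and Kdr held CCGGAA. Of all 32851 windows of the same length, 30.6% held CAGGAA and 14.9% held CCGGAA on either strand. The SOX core ACAAT, searched on both strands like all the motifs, was in the Tek and Emcn windows and in 31.0% of all windows. CAGAC, the SMAD core through which TGFβ signals reach DNA, was in the Cldn5 and Egfl7 windows and in 49.6% of all windows. These are matches of letters and do not show that a factor binds.

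All 10 genes had a lower mean in the Tgfbr2cko pulp, but the size of the difference varied widely, from 58.8% lower for Cldn5 to 15.5% lower for Kdr. Cldn5 stood apart from the rest. Tek and Emcn were also lower in every mutant library than in any control, whereas the values of the other 7 overlapped between the genotypes. Over all 12148 genes, 51.2% had a lower mean in the mutants and 3.14% had every mutant value below every control value. The median log2 fold change of the 10 members was -0.35, against -0.01 for all genes.

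The junction genes come first. Cldn5 encodes claudin 5, the tight junction protein that seals endothelium. Its gene is a small one of 1416 exonic bases on chromosome 16 (18776847 to 18778262, plus strand, GRCm38). It measured 4.69, 5.32, 4.62 and 4.73 log2 CPM in Osterix-Cre 49 to 52, and 3.43, 3.34, 3.66 and 3.81 in Tgfbr2cko 53 to 56. Every mutant was below every control, and the highest mutant was the library labelled Tgfbr2cko 56. The means were 4.84 ± 0.32 and 3.56 ± 0.21 (SD, n = 4 each), a log2 fold change of -1.28 (SE 0.20). Without library 56 the log2 fold change was -1.36, and without Osterix-Cre 50, which was well above the other 3 controls, it was -1.12.

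Cdh5 encodes VE-cadherin, the adherens junction protein of endothelium. It measured 4.81, 5.44, 4.38 and 4.35 log2 CPM in the controls, with 5.09, 4.03, 4.49 and 4.32 in the mutants. The highest mutant, 53, exceeded 3 of the 4 controls. The log2 fold change was -0.27 (SE 0.27), no larger than its standard error. It was -0.03 without Osterix-Cre 50, -0.47 without Tgfbr2cko 53 and -0.21 without library 56.

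Pecam1, the platelet and endothelial adhesion molecule, measured 5.79, 6.16, 6.08 and 6.13 log2 CPM in the controls. In the mutants it measured 5.67, 5.65, 6.04 and 5.67. Of the mutants, 3 lay close together below the lowest control, and Tgfbr2cko 55 lay among the controls. Its log2 fold change was -0.28 (SE 0.15), and -0.25 without library 56.

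Esam, an adhesion molecule of endothelial tight junctions, measured 5.51, 6.37, 5.79 and 5.97 log2 CPM among the controls against 5.46, 5.33, 5.68 and 5.61 among the mutants. Here 2 mutants lay below the lowest control, Osterix-Cre 49, and the mutants spread less than the controls. Its log2 fold change was -0.39 (SE 0.18), -0.24 without Osterix-Cre 50 and -0.42 without library 56. Of the 4 junction genes, Cldn5 was thus the only one whose genotypes did not overlap.

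Tek and Tie1 are the Tie receptor tyrosine kinases. Tek encodes Tie2, which binds the angiopoietins and keeps vessels quiet and stable. It measured 4.92, 5.41, 4.89 and 4.96 log2 CPM in Osterix-Cre 49 to 52, and 4.45, 4.32, 4.32 and 4.54 in Tgfbr2cko 53 to 56. All 4 mutants were below all 4 controls, with the library labelled Tgfbr2cko 56 nearest to them. The means were 5.04 ± 0.25 and 4.41 ± 0.11 (SD, n = 4 each), a log2 fold change of -0.64 (SE 0.17), or 35.7% lower. Without Osterix-Cre 50, the highest control, the log2 fold change was -0.51 and fell short of 1.5-fold; without library 56 it was -0.68.

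Tie1, the other Tie receptor, measured 4.71, 5.50, 5.98 and 5.83 log2 CPM in the controls, with 4.55, 4.99, 5.69 and 5.55 in the mutants. Both genotypes spread over more than 1 log2 unit, the widest spread of the 10 genes (pooled SD 0.55), and only Tgfbr2cko 53 lay below every control. The log2 fold change was -0.31 (SE 0.29). It was -0.57 without Osterix-Cre 49, -0.09 without Tgfbr2cko 53 and -0.43 without library 56, so single libraries set much of its size.

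Kdr and Flt1 are the VEGF receptors: Kdr carries most of the growth signal, and Flt1 binds VEGF tightly and limits it. Kdr measured 5.66, 6.26, 6.09 and 6.35 log2 CPM among the controls against 5.97, 5.73, 6.30 and 5.38 among the mutants. Its lowest value was in the library labelled Tgfbr2cko 56, the only mutant below every control. The log2 fold change was -0.24 (SE 0.21). It was -0.09 without that library, -0.39 without Tgfbr2cko 55 and -0.39 without Osterix-Cre 49. Flt1 measured 4.82, 5.15, 4.85 and 5.08 log2 CPM in the controls, with 4.59, 4.21, 4.90 and 4.62 in the mutants. Of the mutants, 3 lay below the lowest control and Tgfbr2cko 55 lay among the controls. For Flt1 the log2 fold change was -0.40 (SE 0.18), and -0.41 without library 56.

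Emcn and Egfl7 are the last pair. Emcn encodes endomucin, a sialomucin on the surface of capillary and venous endothelium. It measured 5.57, 5.83, 5.52 and 5.67 log2 CPM among the controls against 5.14, 5.21, 5.32 and 5.25 among the mutants. The genotypes did not overlap, and the spread within each was the smallest of the 10 genes (pooled SD 0.11). The means were 5.65 ± 0.14 and 5.23 ± 0.07 (SD, n = 4 each), a log2 fold change of -0.42 (SE 0.14), or 25.2% lower, which is under 1.5-fold. Without library 56 it was -0.43.

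Egfl7, a protein that endothelial cells secrete around themselves, measured 6.55, 6.45, 6.22 and 6.38 log2 CPM in the controls, with 6.06, 6.11, 6.31 and 6.02 in the mutants. Of the mutants, 3 lay below the lowest control, Osterix-Cre 51, and Tgfbr2cko 55 lay above it. The log2 fold change was -0.28 (SE 0.14), and -0.24 without library 56. The exons of Egfl7 share 7.37% of their bases with Gm20532 on the same strand and a smaller part with Agpat2 on the other strand, so some of its reads could belong to a neighbour.

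**Figure D1:**
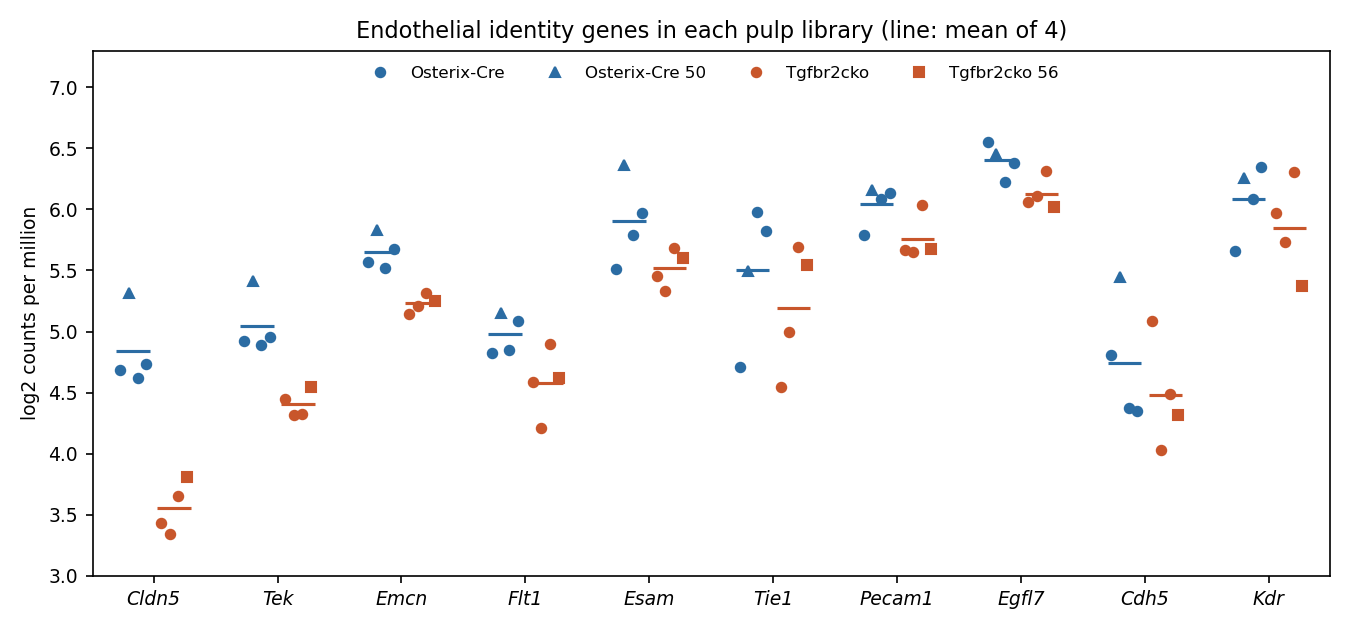
Each of the 10 genes (x axis) in each pulp library, in log2 CPM (y axis); points are libraries, bars are the mean of 4, the triangle is Osterix-Cre 50 and the square is the library labelled Tgfbr2cko 56. The mutant values of Cldn5, Tek and Emcn lie wholly below the control values, with the widest gap for Cldn5 (3.34 to 3.81 against 4.62 to 5.32), and those of the other 7 genes overlap the controls.

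By the rule of an unadjusted p under 0.05 and at least 1.5-fold, as limma gave it over all 12148 genes, 2 of the 10 members were lower, Cldn5 and Tek, and 0 were higher. The same rule took 3.65% of all genes as lower and 2.12% as higher. By an adjusted p under 0.05, 1 member was lower (Cldn5) and 0 were higher, against 0.7% and 0.247% of all genes; with the title number as a replicate block, 0 members passed it. Cldn5 and Tek were picked from this contrast, so these counts restate the choice of members and are no test of them.

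Within a genotype, the same libraries were often the highest or the lowest. Osterix-Cre 50 was the highest control for 7 of the 10 genes, the exceptions being Tie1, Kdr and Egfl7. Tgfbr2cko 55 was the highest mutant for 7, the exceptions being Cldn5, Tek and Cdh5. Osterix-Cre 49 was the lowest control for 5, and Tgfbr2cko 54 the lowest mutant for 6. Summed over the 10 genes, the controls 49 to 52 held 431, 582, 478 and 517 CPM, and the mutants 53 to 56 held 373, 347, 452 and 373 CPM. On this sum the genotypes overlapped, since Tgfbr2cko 55 was above Osterix-Cre 49.

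Each gene was also set against the mean of the other 9 in the same library, a measure that does not depend on how the libraries were scaled. Cldn5 stood at -0.92 to -0.53 log2 units relative to the other 9 among the controls against -1.79 to -1.41 among the mutants, so that the genotypes did not overlap; the mean difference was -0.92. Against Pecam1 alone the mean difference of Cldn5 was -0.998, again with no overlap. Tek overlapped on this measure, at -0.65 to -0.42 in the controls, with -1.06 to -0.59 in the mutants, a mean difference of -0.21. Against Pecam1 alone the mean difference of Tek was -0.36, also with overlap. The mean differences of the remaining 8 lay between 0.03 (Emcn) and 0.23 (Kdr), and the genotypes overlapped for each. Their sign is set in part by the reference, which for each of them includes Cldn5 and Tek. Against Pecam1 alone, Emcn was at -0.14, Flt1 at -0.11, Esam at -0.11 and Tie1 at -0.03, whereas Kdr was at 0.04, Cdh5 at 0.02 and Egfl7 at 0.01. Cldn5 and Tek were picked as lower in these mutants, so their place among the members is a description of that choice.

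**Figure D2:**
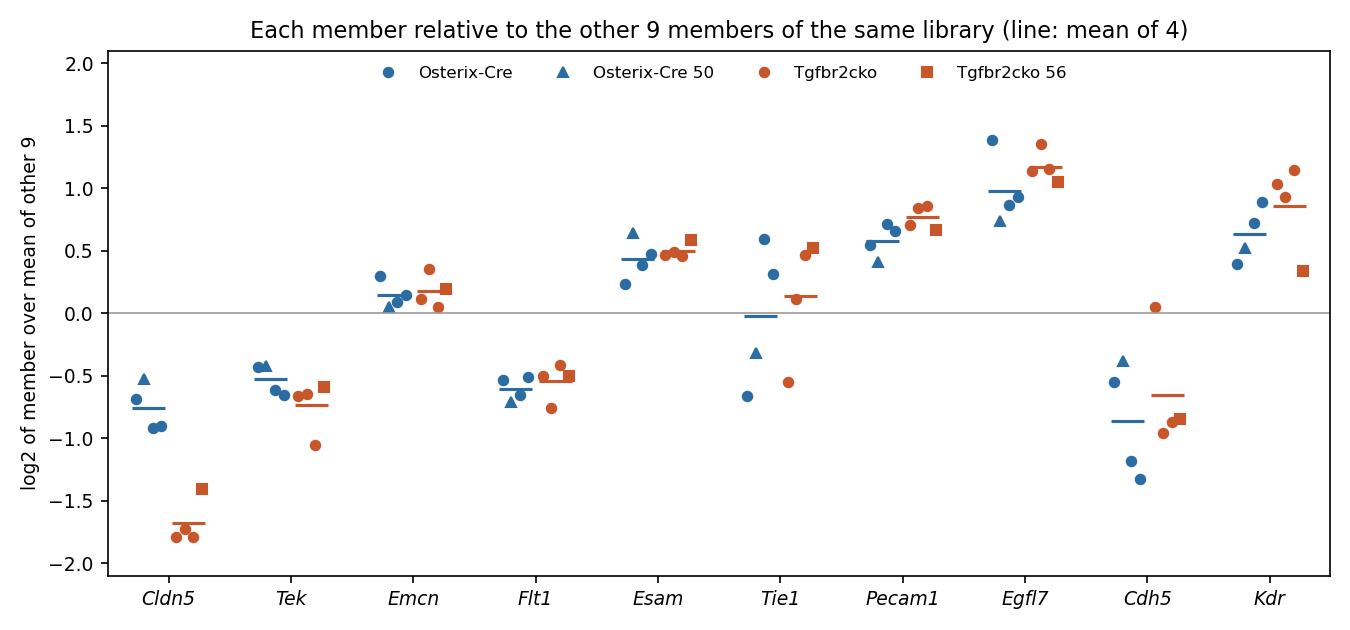
Each of the 10 genes relative to the other 9 in the same library, as the log2 difference to their mean (y axis); points are libraries, bars are the mean of 4, the triangle is Osterix-Cre 50 and the square is the library labelled Tgfbr2cko 56. For Cldn5 every mutant (-1.79 to -1.41) lies below every control (-0.92 to -0.53), and for each of the other 9 genes the genotypes overlap.

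Levels of different genes were compared per length, as reads per kilobase of exon per 1000000 reads (RPKM), by the mean over the controls. Egfl7 was the highest (23.7 RPKM), then Esam (21.5) and Cldn5 (20.6), and the control ranges of these neighbours overlapped. A gap followed: every control value of Cldn5 was above every control value of Pecam1 (10.6), the next gene. Pecam1, Tie1 (9.71), Emcn (9.32), Kdr (7.65), Tek (7.08) and Cdh5 (6.70) formed a row in which each overlapped the next. Flt1 was the lowest (2.34), below Cdh5 in every control, although its exon length of 13504 bases, the union over all its transcripts, lowers a value per length where a short form is made. In the mutants Cldn5 was at 8.39 RPKM and stood below Pecam1 (8.76) by its mean, with overlapping ranges. Tek was at 4.51 RPKM in the mutants, below Cdh5 (5.51) by its mean, and its range lay inside that of Cdh5.

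Other endothelial genes were set beside the members. This list was also drawn up with earlier results of these data known, so it is not independent of them. A list of 32 such genes, of which 30 were in the table, was tested on the genotype contrast with limma over all genes. The mean was lower in the mutants for 24 of the 30, and the median log2 fold change was -0.38, close to that of the identity genes. By the rule of an unadjusted p under 0.05 and at least 1.5-fold, 8 of the 30 fell (26.7%, against 3.65% of all genes) and 0 rose. By an adjusted p under 0.05, 0 passed in either direction. At an unadjusted p under 0.05 with no fold limit, 12 were lower and 0 higher, against 5.08% and 3.3% of all genes. With limma's library weights 2 passed the adjusted threshold, Sox17 and Clec14a, and with voom weights 0. Leaving out libraries or averaging by title number gave 0 or 1: Clec14a without Osterix-Cre 49 (also with 55 and 56 left out too), Vwf without Tgfbr2cko 55 or with averaging, and Sox17 without library 56. With the title number as a replicate block, which leaves the difference to Osterix-Cre 51, Tgfbr2cko 54 and Tgfbr2cko 55, 0 of the 30 passed any of these rules. In 7 of the 30, every mutant was below every control, against 3.14% of all genes.

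The 8 that fell had several roles. Vwf, the clotting factor that endothelium stores and releases, fell by 1.11 on the log2 scale (SE 0.30, adjusted p = 0.125). Sox17, a transcription factor of arterial endothelium, fell by 1.04 (SE 0.24, adjusted p = 0.0726). It measured 4.05, 4.89, 4.07 and 3.95 log2 CPM among the controls against 2.93, 3.06, 3.28 and 3.55 among the mutants, with no overlap, and 16.9% of its exonic bases are shared with Gm37587 on the other strand. Clec14a, a surface lectin of vessels, fell by 0.80 (SE 0.21, adjusted p = 0.124), and Adgrf5, an adhesion receptor of endothelium, fell by 0.65 (SE 0.18, adjusted p = 0.125). Icam2, an adhesion molecule for leukocytes, fell by 0.69 (adjusted p = 0.191). Rasip1, which organises the lumen of vessels, fell by 0.84 (adjusted p = 0.292) and shares up to 20.4% of its exonic bases with a neighbour, Izumo1 on the same strand being among its overlapping genes. Arhgef15, a signalling protein of endothelium, fell by 0.78 (adjusted p = 0.236). Sox7, another endothelial transcription factor, fell by 0.59 (adjusted p = 0.541). None of the 8 was lost by leaving out library 56 except Sox7, in whose place Cd93 passed. Leaving out Osterix-Cre 50 left 5 of the 30: Sox17, Clec14a, Vwf, Arhgef15 and Adgrf5.

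**Figure D3:**
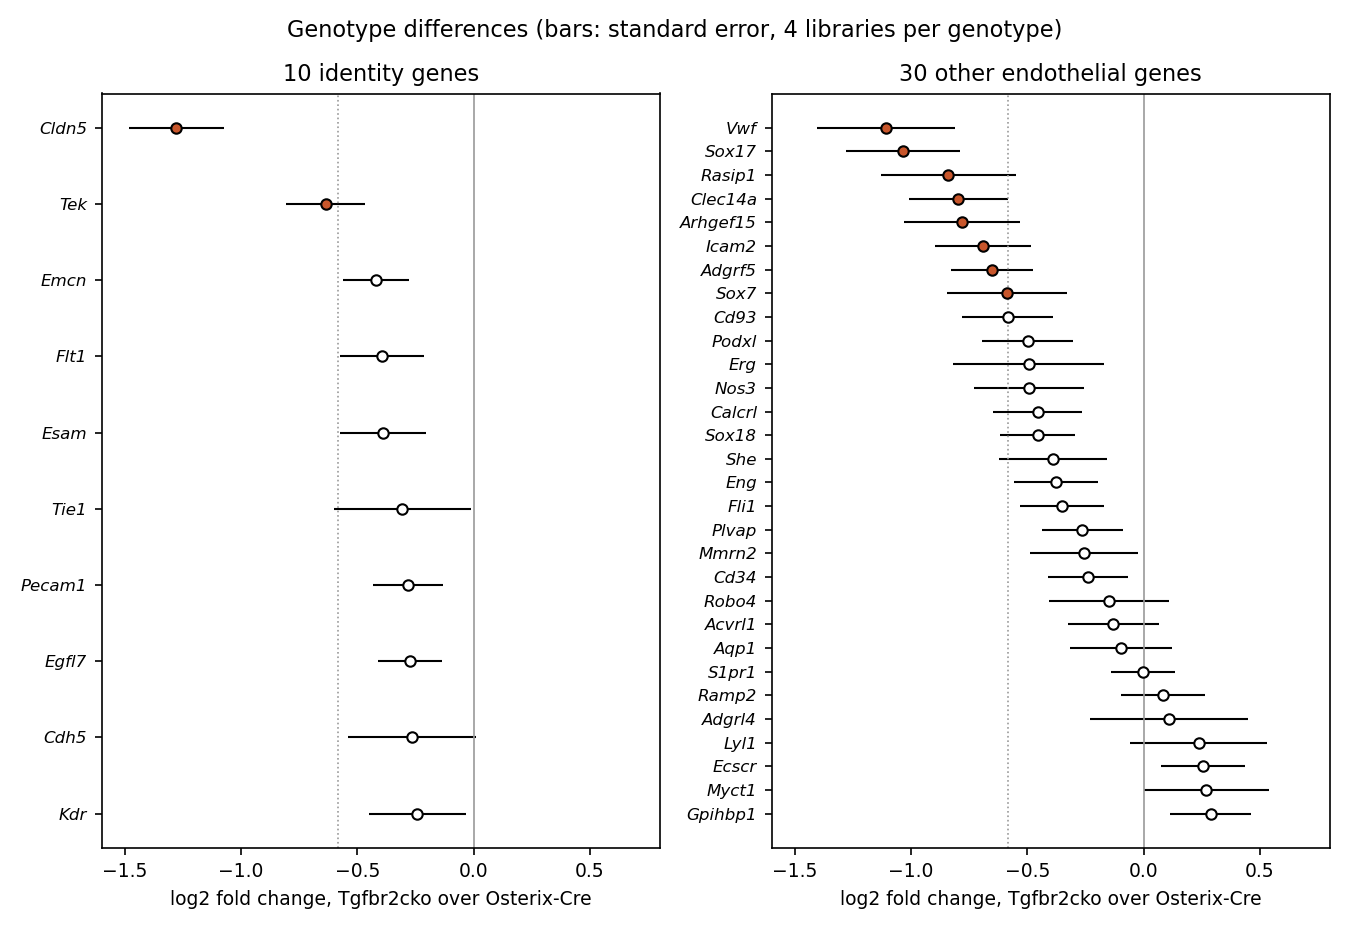
Log2 fold change of Tgfbr2cko over Osterix-Cre (x axis) for the 10 identity genes (left) and 30 other endothelial genes (right); bars are standard errors, filled points have an unadjusted p under 0.05 and at least 1.5-fold, and the dotted line marks a 1.5-fold fall. All 10 points on the left and 24 of 30 on the right lie below 0, with 2 and 8 filled (3.65% of all genes are so called as lower).

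The partners of the members were looked at by role. Of 10 measured junction partners, 1 fell and 1 rose by the rule of p and fold. That rule took 3.65% of all genes as lower and 2.12% as higher. Jam2, a junctional adhesion molecule, fell by 1.31 on the log2 scale (SE 0.29, limma adjusted p = 0.0546), from 7.38 ± 0.63 to 6.07 ± 0.44 log2 CPM (SD, n = 4 each), with every mutant below every control. F11r, a junctional adhesion molecule that epithelia also make, rose by 0.61 (SE 0.19, adjusted p = 0.223) and was highest in library 56. The median log2 fold change of the 10 partners was 0.11.

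Of 11 measured genes of the Tie and VEGF axis, 2 fell and 0 rose by the rule of p and fold (3.65% and 2.12% of all genes), with a median of -0.44. Angpt2, an angiopoietin that opposes Tek signalling in many settings, fell by 1.04 (SE 0.27, adjusted p = 0.116). It measured 3.27, 3.88, 4.23 and 3.62 log2 CPM in the controls, with 3.11, 3.02, 2.39 and 2.32 in the mutants. Ptprb, the phosphatase that restrains Tek and VE-cadherin signalling, fell by 0.72 (SE 0.20, adjusted p = 0.135). Of the other Tek ligands, Angpt1 had a log2 fold change of 0.13 (SE 0.29) and Angpt4 one of -0.63 (SE 0.40). Of the Tie pathway, Tek and Angpt2 were thus below every control in every mutant and Ptprb was lower with 1 mutant inside the control range, whereas the genotypes overlapped for Angpt1, Angpt4 and Tie1. Over all genes, 3.14% had every mutant value below every control value.

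By vessel type, 2 of 7 measured arterial genes fell by the rule of p and fold, with a median of -0.38. The counts by vessel type are to be read against the 3.65% of all genes lower and the 2.12% higher by that rule. Dll4, the Notch ligand of arteries and sprouting capillaries, fell by 0.95 (SE 0.24, adjusted p = 0.0974), and Gja4, an arterial connexin, fell by 0.82 (SE 0.22, adjusted p = 0.123). Of 4 venous genes 1 fell: Ackr1, the chemokine receptor of venules, by 1.48 (SE 0.34, adjusted p = 0.0660), at 14 to 97 reads and with 25.7% of its exons shared with Cadm3 on the same strand. Their median was -0.03. Of 4 tip cell genes, which mark sprouting endothelium, 1 rose, Kcne3, by 1.14 (SE 0.28, adjusted p = 0.0928). Of the rest, Esm1 was at -0.26 (SE 0.28), at 25 to 34 reads, with every mutant below every control. Plaur was at 0.97 (SE 0.52), highest in library 56, and Adm at 0.57 (SE 0.33). Which cells made these transcripts was not tested. Of 6 genes of barrier endothelium, 3 rose and 0 fell: Slc2a1, a glucose transporter, by 0.68 (adjusted p = 0.275), Lsr, a protein of tricellular junctions with 43.5% of its exonic bases shared with an antisense gene, by 0.75 (adjusted p = 0.438), and Slc7a5, an amino acid transporter, by 0.66 (adjusted p = 0.412). These 3 are also made by other cells, epithelia among them. Only Lyve1 of the 4 lymphatic genes was in the table, with a log2 fold change of -0.69 (SE 0.57), and Prox1, Ccl21a and Mmrn1 were not. In these lists too, 0 genes passed an adjusted p under 0.05 in the limma fit of all libraries. Over the alternative fits the lowest adjusted p was under that threshold for Kcne3 (0.0143), Jam2 (0.0153), Ackr1 (0.0217), Angpt2 (0.0301), Dll4 (0.0381) and Ptprb (0.0431), and the highest was 0.418 for Jam2 and 0.99988 for each of the other 5, both with the title number as a replicate block. Counted at an unadjusted p under 0.05, a rule that 5.08% of all genes passed as lower and 3.3% as higher, 1 was lower and 1 higher among the junction partners, 3 and 0 in the Tie and VEGF axis, 3 and 0 among arterial genes, 1 and 0 among venous, 0 and 1 among tip cell, 0 and 3 among barrier and 0 and 0 among lymphatic genes. Without library 56 the falls stayed near their size (log2 fold changes of -1.20 for Jam2, -0.91 for Angpt2, -0.65 for Ptprb, -0.72 for Dll4, -0.74 for Gja4 and -1.38 for Ackr1), and Kcne3 was at 1.11. F11r (0.44), Slc2a1 (0.58), Lsr (0.55) and Slc7a5 (0.47) were then under 1.5-fold. The list medians were then 0.61 for tip cell, 0.38 for barrier and -0.14 for venous genes.

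**Figure D4:**
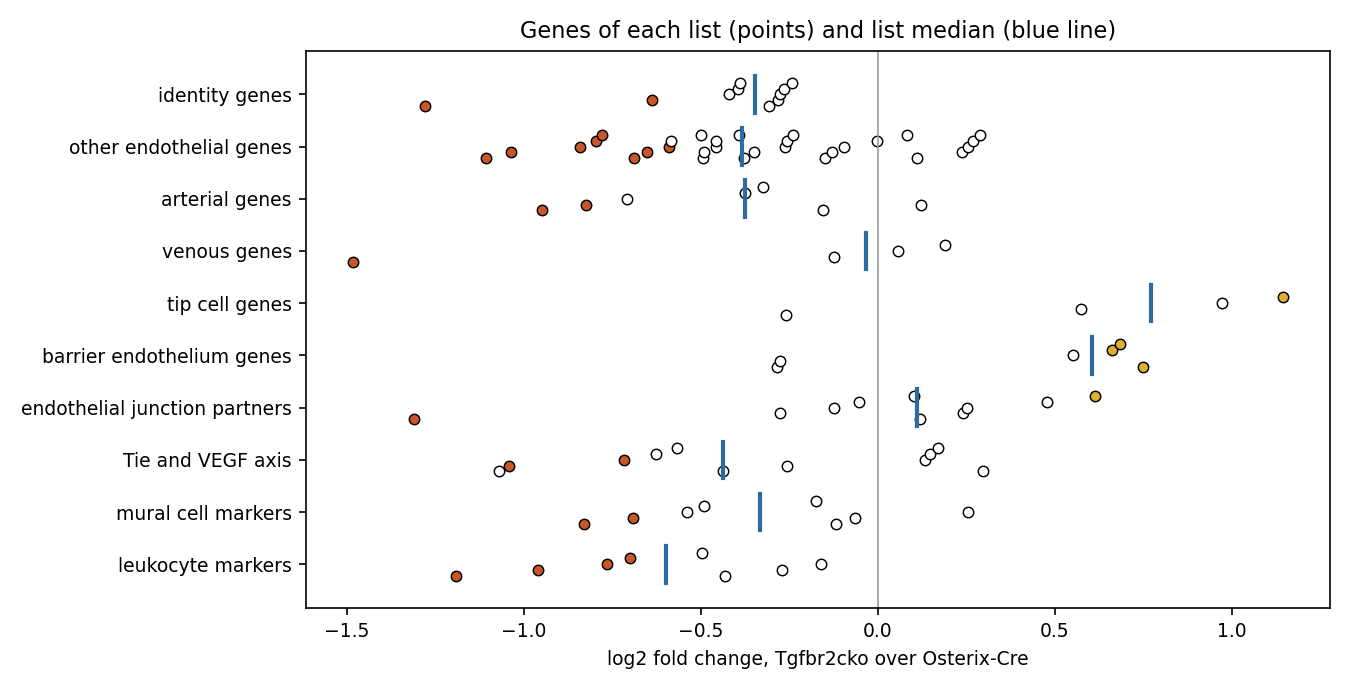
Log2 fold change of Tgfbr2cko over Osterix-Cre (x axis) for the genes of each list (rows); each point is a gene, the blue line is the list median, red points are lower and yellow points higher with an unadjusted p under 0.05 and at least 1.5-fold. The medians of the identity genes and of the other endothelial genes are -0.35 and -0.38, and those of the tip cell and barrier lists lie above 0, at 0.77 and 0.61, or 0.61 and 0.38 without library 56.

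Markers of other cells moved as well, to be read against the 51.2% of all genes with a lower mean in the mutants and the 3.65% that fell by the rule of p and fold. All 8 leukocyte markers had a lower mean, and 4 fell by that rule: Ptprc by 0.96, Cd68 by 0.70, Fcgr3 by 0.77 and Lyz2 by 1.19, the last with an adjusted p = 0.0280. Over the alternative limma fits, the adjusted p of Lyz2 did not always stay under 0.05. Summed, the leukocyte markers held 1152 to 1507 CPM among the controls against 539 to 1155 CPM among the mutants, or 839 to 1155 CPM without library 56. Without that library Lyz2 was at -0.96 and Ptprc at -0.81 on the log2 scale, and Cd68 (-0.37) and Fcgr3 (-0.54) were under 1.5-fold. Of 8 measured mural markers, which label the pericytes and smooth muscle around vessels, 7 had a lower mean and 2 fell, Rgs5 by 0.83 (SE 0.16, adjusted p = 0.0212) and Pdgfrb by 0.69 (SE 0.23, adjusted p = 0.282). For Rgs5 too the adjusted p was not under 0.05 in every alternative limma fit. The sum of the mural markers was 653 to 940 CPM in the controls, with 439 to 854 CPM in the mutants, or 640 to 854 CPM without library 56, where Rgs5 was at -0.77 and Pdgfrb, at -0.48, was under 1.5-fold. Tagln, Myh11, Cnn1 and Des, which define smooth muscle, were not in the table. Of the platelet markers, which matter because platelets also carry Pecam1 and Vwf, 2 of 5 were in the table and 1 fell, Pf4 by 1.19 (SE 0.34, adjusted p = 0.159), with a sum of 103 to 201 CPM among the controls against 39.7 to 138 CPM among the mutants. Without library 56 the lowest mutant sum was 50.9 CPM and Pf4 was at -0.91. The defining platelet genes Gp9, Gp1ba and Ppbp were not in the table. The part of these cells in the differences of the identity genes was not tested.

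Of 5 erythroid markers 0 passed the rule, with the widest differences for Hbb-bs at 0.35 (SE 0.42) and Hba-a2 at -0.31 (SE 0.58). Their sum was 655 to 1496 CPM in the controls and 566 to 694 CPM in Tgfbr2cko 53 to 55, but 2541 CPM in library 56, where the summed identity genes were at 373 CPM. Of 11 enamel organ markers, Klk4 fell by 2.71 (adjusted p = 0.000136) and Cdh1 rose by 1.15 (adjusted p = 0.527), but by 0.55, under 1.5-fold, without library 56, where Klk4 was at -2.89. The adjusted p of Klk4 did not stay under 0.05 in every alternative limma fit. The sum of the enamel organ markers ran from 4193 to 23641 CPM over the controls and from 4462 to 195953 CPM over the mutants, the highest being library 56. Of 8 odontoblast and pulp markers, Nes, which endothelium also makes, fell by 0.81 (SE 0.26, adjusted p = 0.235). The part of these cells was not tested either.

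The genes whose pattern was most like that of the members were ranked by Pearson's r, over the 8 libraries, to the mean of the 10 members, each centred on its own mean. Of 12134 genes ranked, 21 had an r over 0.9, and 4 of these were among the 30 other endothelial genes. The 10 most alike were Rint1 (r = 0.955), Lasp1 (0.953), Icam2 (0.947), Trim47 (0.945), Gm31105 (0.933), Arvcf (0.927), Gja4 (0.925), Necab1 (0.924), Sox7 (0.922) and Ptprb (0.922). Of these, 4 are on the lists used here: Icam2, Sox7, Gja4 and Ptprb. The median r was 0.75 over the 30 other endothelial genes and -0.00 over all genes ranked. The 8 points share the genotype difference and the scaling of each library, so r is only a measure of ranking here.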

How the data were processed

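Per the labels, pulp RNA was amplified from low input (SMAR-seq HT, Nextera XT) and sequenced; the submitters' processing notes name fastp 0.21.0, HISAT2 2.1.0, featureCounts (Subread 2.0.1), limma and the build GRCm38.p5, and the study's methods name a human build instead. The deposited values are log2 counts per 1000000 reads (log2 CPM) made by the authors with voom, which adds 0.5 to each count. Whole reads were recovered from all 97184 values (tolerance 0.001 reads). Amplified reads without molecular identifiers are not independent molecules.

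Gene symbols came from GENCODE M21 (12144 of 12148 identifiers matched) and RPKM used its union exon lengths. The deposited log2 values were fitted with limma 3.58.1 (R 4.3.3; intensity trend, genotype as the only term, two-sided, all 8 libraries), with Benjamini-Hochberg adjustment over all 12148 genes, after a test on simulated data. Tables used Python 3.11.15, pandas 2.3.3 and scipy 1.17.1, figures matplotlib 3.10.9. Alternatives changed weights, scaling, filter, thresholds and libraries. Named were the 10 members, the genes of each other list with an unadjusted p under 0.05 and at least 1.5-fold (where there were none, the 2 with the widest difference), the 10 genes most like the members, and Tgfbr2. Angpt1 and Angpt4, ligands of Tek, and Esm1, Plaur and Adm, of the tip cell list, were named outside that rule after their values were seen. The members and lists were chosen with earlier results of these data known. Results for 1 further marker list are not reported here.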

Additional observations from a re-analysis of the deposited data

Results flagged for a closer look

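Of 114 groups of 4 libraries, 15 held a library whose gap to the others was above Dixon's 95% critical value. Chance alone flags about 1 in 20 independent groups. These groups share libraries, and some are sums over genes also tested singly, so the 15 cannot be read against that share. The groups were the 10 members, the 29 genes of other lists past the rule of p and fold, 11 further genes given with values, the share of Amelx and Ambn reads and 6 summed lists, each in both genotypes. Osterix-Cre 50 was high for Cldn5, at 5.32 log2 CPM against 4.62 to 4.73 in the other 3 controls, and for Tek, at 5.41 against 4.89 to 4.96. The same library was high for Sox17, at 4.89 against 3.95 to 4.07. Tgfbr2cko 55 was high for Pecam1, at 6.04 against 5.65 to 5.67 in the other 3 mutants, and for Gja4, at 4.91 against 4.08 to 4.20. Osterix-Cre 49 was low for Clec14a, at 5.22 against 5.88 to 5.97, and for Ptprb, at 5.11 against 5.56 to 5.59. In Osterix-Cre 49 and in library 56 the enamel and red cell signals were high. Amelx and Ambn took 2.14% of reads in Osterix-Cre 49 against 0.326% to 0.548% in the other 3 controls, and 18.5% in library 56 against 0.347% to 2.74% in the other 3 mutants. The enamel organ markers summed to 23641 CPM in Osterix-Cre 49 against 4193 to 7320 CPM, and to 195953 CPM in library 56 against 4462 to 30346 CPM. The erythroid markers summed to 1496 CPM in Osterix-Cre 49 against 655 to 766 CPM, and to 2541 CPM in library 56 against 566 to 694 CPM. Hbb-bs was at 9.07 log2 CPM in Osterix-Cre 49 against 7.73 to 7.88, and at 9.97 in library 56 against 7.83 to 8.08.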

How the results depend on the processing

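All 10 members kept a negative log2 fold change under all 19 alternatives that refit the values. These fits reuse the libraries from which Cldn5 and Tek were picked. Fitting without the intensity trend or with the filter on mean level cannot change a member's value. The log2 fold change ranged from -1.50 to -1.12 for Cldn5 and from -0.70 to -0.51 for Tek. The count of members past the rule of p and fold, which restates how Cldn5 and Tek were picked and is no test of them, was 1 (Cldn5) in place of 2 when library totals left out the enamel matrix genes (2.91% of all genes lower by the same rule), at a 2-fold threshold (1.37%) and at an adjusted p under 0.05 (0.7%); leaving out each library in turn gave 1 to 2, the 1 being without Osterix-Cre 50 (3.22%). With libraries 49, 55 and 56, which had the most Amelx and Ambn reads, left out together (chosen after seeing the data), it was 5 (3.39% of all genes), adding Tie1, Flt1 and Esam, and the median of the members was -0.56; there the median of all genes was 0.11, so differences are to be read against that shift, and Pecam1 was at -0.46, Tie1 at -0.996, Flt1 at -0.63, Esam at -0.65, Kdr at -0.38 and Cdh5 at -0.17. Kdr was at -0.13 with library weights and at -0.12 with the enamel matrix covariate (chosen after seeing the data). Of the 30 other endothelial genes, 2 passed at 2-fold (Sox17 and Vwf), 0 at an adjusted p under 0.05 by limma, and 5 to 10 when each library was left out in turn, with 5 without Osterix-Cre 50. The median of the members ranged from -0.45 to -0.27 when each library was left out in turn. The title numbers share only 1 value between the genotypes and are not known to mark pairs. A fit with the title number as a replicate block (chosen after seeing the data) rests the genotype difference on Osterix-Cre 51, Tgfbr2cko 54 and Tgfbr2cko 55. It gave 1 member past the rule (Cldn5 at -1.12, with Tek at -0.57), 0 of the 30 other endothelial genes (also 0 at an unadjusted p under 0.05) and 1.54% of all genes as lower. Cldn5 then no longer passed an adjusted p under 0.05 (0 members did), and the log2 fold changes that moved by over 1.5 times were Emcn at -0.26, Cdh5 at -0.12, Kdr at -0.07, Egfl7 at -0.01 and Tie1 at -0.63. Genes with few reads, such as Ackr1, are limited by depth.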
